A study of Mus musculus with 27 samples.

Results

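Expression of 10 endothelial and angiogenesis genes was followed in mouse skeletal muscle after cardiotoxin (CTX) injury. The genes were Pecam1 and Cdh5 of endothelial junctions, the growth factor Vegfa with its receptors Kdr and Flt1, the receptor Tek with its ligands Angpt1 and Angpt2, and the peptide Apln with its receptor Aplnr. They were taken by gene symbol from the deposited expression tables, where they are 10 of 55852 entries in the table of injured muscle and 10 of 55677 in the table of control muscle, and all 10 passed the filter on low values in both. CTX, a toxin of snake venom, destroys muscle fibres but spares enough of the tissue for it to regenerate. The libraries came from the gastrocnemius of male mice, as whole muscle RNA. The injured groups were C57BL/6J wild type (WT) and Gsdme KO on days 1, 4, 7 and 14 after CTX (D1, D4, D7 and D14), with 3 libraries each, and 3 more libraries came from WT muscle that was not injured (control). Gsdme encodes the pore-forming protein gasdermin E, and the KO is described in the study as a global deletion, whereas a genotype field of the labels says knockdown. No uninjured KO muscle was analysed here, the control was described as the contralateral muscle of injured mice in the study, and the age of the mice was not found in the sources used here.

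New vessels grow when endothelial cells sprout from existing vessels or when capillaries remodel. VEGF-A, a growth factor made by muscle fibres and many other cells, signals mainly through VEGFR2 (Kdr), while VEGFR1 (Flt1) binds VEGF-A tightly and, in large part, holds it back from VEGFR2. Angiopoietin 1 (Angpt1), made mostly by mural and other mesenchymal cells, activates the receptor TIE2 (Tek) and keeps vessels quiet. Angiopoietin 2 (Angpt2), released by activated endothelium, competes with it in many settings. Apelin (Apln) is typical of sprouting tip cells, and its receptor APJ (Aplnr) marks endothelium of growing vessels and veins. PECAM-1 and VE-cadherin (Cdh5) join endothelial cells to each other and serve as general markers of endothelium, although platelets and leukocytes also carry PECAM-1.

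Promoters are shown for the ligands Vegfa and Apln, whose calls had opposite signs, and for the VEGF-A receptors Kdr and Flt1, whose levels parted on D4. The 250 bases before the annotated start are given 5′ to 3′ on the gene's strand, from the RefSeq promoter table of GRCm38.p6, the assembly that mm10 in the submitters' processing notes stands for. Promoters for 5 of the 10 members were matched in that table. Capitals mark matches on either strand to the core of the hypoxia response element (ACGTG or GCGTG) or to an ETS core (AGGAAG or CGGAAG), the latter because ETS factors drive many endothelial genes.
Kdr: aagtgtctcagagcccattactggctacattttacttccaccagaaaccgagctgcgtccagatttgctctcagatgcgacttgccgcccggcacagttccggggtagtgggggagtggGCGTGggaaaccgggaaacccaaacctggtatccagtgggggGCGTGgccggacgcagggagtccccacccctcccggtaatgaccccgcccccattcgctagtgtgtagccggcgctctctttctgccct
Flt1: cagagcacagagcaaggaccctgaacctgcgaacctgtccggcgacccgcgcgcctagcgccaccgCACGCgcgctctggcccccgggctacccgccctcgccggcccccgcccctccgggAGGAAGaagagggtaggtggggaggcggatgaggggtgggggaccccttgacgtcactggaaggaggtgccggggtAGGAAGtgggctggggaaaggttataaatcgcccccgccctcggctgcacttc
Vegfa: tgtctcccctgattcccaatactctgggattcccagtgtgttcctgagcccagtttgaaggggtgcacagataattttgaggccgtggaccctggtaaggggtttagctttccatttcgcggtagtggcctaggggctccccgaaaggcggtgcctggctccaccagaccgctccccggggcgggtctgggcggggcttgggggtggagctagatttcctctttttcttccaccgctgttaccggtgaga
Apln: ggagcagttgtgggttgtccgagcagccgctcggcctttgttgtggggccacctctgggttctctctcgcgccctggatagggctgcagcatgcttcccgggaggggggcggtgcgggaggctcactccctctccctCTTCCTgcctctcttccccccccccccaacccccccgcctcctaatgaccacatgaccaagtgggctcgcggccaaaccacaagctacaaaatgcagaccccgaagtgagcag
The Kdr window (chr5:75978456-75978705, minus strand) held 2 matches to the hypoxia core and no ETS core. The Flt1 window (chr5:147726012-147726261, minus strand) held 1 hypoxia match and 2 ETS matches that did not overlap. In Apln (chrX:48034854-48035103, minus strand) there was 1 ETS match. The Vegfa window printed here (chr17:46032378-46032627, minus strand) had no match to either, whereas the window of a second annotated start of Vegfa (chr17:46025164-46025413, minus strand), whose letters are not printed, held 2 matches to the hypoxia core and no ETS core. Of the 32851 windows of this length in the table, 38.6% held the hypoxia core and 39.2% the ETS core, so that a match is common and is given as a description of these letters alone.

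The deposited values were TPM (transcript abundance relative to all transcripts of a library, corrected for gene length), so that levels can be compared between genes while the read depth is unknown. Differences are given on the log2(TPM + 1) scale, which understates changes of low genes, and a gene was called where limma gave a Benjamini-Hochberg adjusted p under 0.05 over all genes tested. Nothing in the labels says whether the 3 libraries of a group came from separate mice, so the p-values measure the spread between these samples. Gsdme was lower in all 3 KO than in all 3 WT libraries on D1, D4 and D7 (1.66 against 3.59, 1.33 against 2.77 and 1.11 against 2.15 TPM on average) and overlapped on D14 (1.67 against 1.98 TPM). It was not called on any day or on average (limma adjusted p = 0.0664). From 11785 to 14704 genes reached 1 TPM in a library, and from 25.4% to 61.4% of a library's TPM lay in its 50 most abundant genes. Since TPM are shares, the median of all genes tested moved by up to 0.66 on the log2 scale (WT D1 against control), and by -0.45 from D7 to D14 in WT. Each result was therefore refitted under 3 rescalings that take out this shift in full or in part (median of ratios, quantile, and removal of the 50 most abundant genes), and also with another pseudocount or filter, with library quality weights, with only the compared groups in the fit, with the replicate number as a block and with each library left out. Calls that were lost are named with each result. WT D1 replicate 3, KO D4 replicate 2 and KO D7 replicate 2 stood apart from their groups with high myofibre genes (summed TPM of 9 genes 125891, 102139 and 141908) and low macrophage genes (summed TPM of 7 genes 700.2, 376.6 and 398.8), and WT D4 replicate 1 stood apart with low myofibre genes (28855). The WT D1 libraries are in both tables, each correlating with itself at r of at least 0.9968 and with another at no more than 0.9847, and the members differed by at most 5.4% between tables. The study describes 2 sequencing batches, but the labels name none, so that batch and genotype on D1, or batch and injury in the control comparison, cannot be told apart. If the WT D1 libraries were of another batch than the later days, the same holds for the WT differences from D1. It would also hold for differences between KO and WT steps from D1, and for genotype averages over days.

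**Figure D1:**
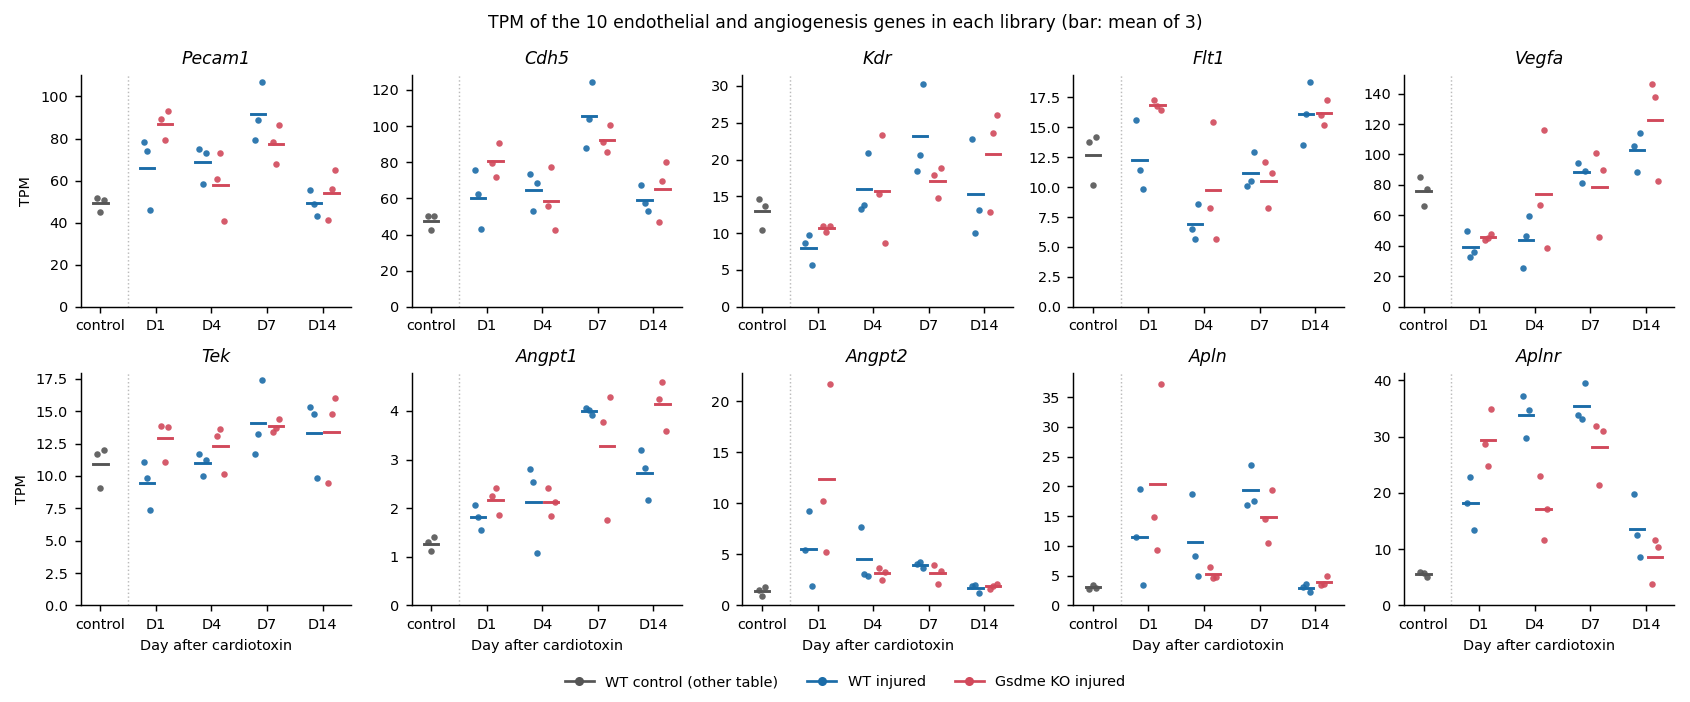
TPM of each gene (y axes, starting at 0) in control muscle and on D1, D4, D7 and D14 after CTX (x axes), with a point for each library and a bar at the mean of 3. Control values come from a separately quantified table, set off by the dotted line. Aplnr is above control in every WT library, Apln is lower on D14 than on D7 in every WT library, and Vegfa is low on D1 and high on D14 in both genotypes.

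The junction genes were highest on D7 in WT. On D14 the Pecam1 libraries in WT overlapped those of control, whereas all 3 Cdh5 libraries were above them. Pecam1 (chr11:106654217-106750628) was at 51.8, 44.9 and 50.6 TPM in the control libraries, and in WT at 78.4, 74.1 and 46.2 on D1, 75.1, 58.2 and 73.1 on D4, 79.4, 88.9 and 107.1 on D7 and 55.6, 49.1 and 43.3 on D14. Cdh5 (chr8:104101625-104144511) was at 50.02, 42.5 and 50.1 TPM in control, and in WT at 75.7, 62.6 and 43.1 on D1, 73.4, 52.9 and 68.5 on D4, 88.2, 104.0 and 124.4 on D7 and 67.5, 57.7 and 52.9 on D14. On D7 no WT library of either gene overlapped those of D4 or D14. Of all genes, 9.52% were higher on D7 than on D4 and 58.9% lower on D14 than on D7 without overlap. The difference from D4 to D7 did not pass the threshold for either (Cdh5 log2 difference 0.69, adjusted p = 0.0564; Pecam1 0.41, adjusted p = 0.197). From D7 to D14 Pecam1 fell by 0.88 (SE 0.22, adjusted p = 0.0113) and Cdh5 fell by 0.81 (SE 0.23, adjusted p = 0.0178) on the log2 scale, by limma. These falls were lost under each of the 3 rescalings, where all alternatives together gave -0.98 to -0.29 for Pecam1 and -0.93 to -0.23 for Cdh5. Both were also lost without WT D14 replicate 3, and Cdh5 without WT D7 replicate 1 or 3 (adjusted p up to 0.0703 and 0.0874).

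In KO muscle the highest mean was on D1 for Pecam1 (89.1, 79.2 and 93.2 TPM) and on D7 for Cdh5 (91.2, 85.8 and 100.6 TPM), and for each gene the D1 and D7 libraries overlapped. Pecam1 was then at 60.6, 73.0 and 40.7 TPM on D4, 78.3, 67.8 and 86.5 on D7 and 41.3, 56.2 and 65.0 on D14, and was lower on D14 than on D1 (fell by 0.70, adjusted p = 0.0134). That call was lost under the 3 rescalings and without KO D14 replicate 1 (adjusted p = 0.0861). Cdh5 in KO was at 79.7, 71.9 and 90.8 TPM on D1, 55.9, 77.2 and 42.3 on D4 and 46.7, 69.4 and 80.4 on D14, with no call between days. Against control, the 3 WT D1 libraries were split about the control range of both genes, with 2 above it and replicate 3 within it. Neither gene was called on D1 (Pecam1 0.41, adjusted p = 0.136; Cdh5 0.32, adjusted p = 0.233), both were called higher without WT D1 replicate 3 (0.64 and 0.54), and rescaling turned both estimates negative. In whole muscle RNA, fewer endothelial cells and less RNA per cell cannot be told apart.

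Over all 10 members, 5 of 10 were called on D1 against control in WT (3 higher, 2 lower), where 61.1% of 13041 genes tested were called, 55.4% higher and 5.64% lower. After rescaling 1 member was higher there and 3 or 4 were lower. From D1 to D4 in WT 1 of 10 was called (lower), against 19.8% of 15718 genes (14.6% higher, 5.27% lower), and from D4 to D7 again 1 of 10 (higher), against 12.3% (3.04% higher, 9.31% lower). Between D7 and D14 in WT 4 of 10 were lower, against 30.9% of genes called lower and 0.923% called higher (31.8% in either direction), while after rescaling 2 were lower and 0 or 1 higher. Between D1 and D14 in WT 1 was higher and 2 were lower, against 45.7% of genes (5.15% higher, 40.5% lower), and under each rescaling 5 were higher and 0 lower. In KO the calls were 3 of 10 for D4 against D1, all lower (19.4% of genes, 7.18% higher and 12.2% lower), 0 of 10 for D7 against D4 (0% of genes; 3 members had an unadjusted p under 0.05), 1 of 10 for D14 against D7, lower (0.56% of genes, 0.0827% higher and 0.477% lower) and 7 of 10 for D14 against D1, 3 higher and 4 lower (51.3% of genes, 8.43% higher and 42.8% lower), with 3 or 4 higher and 3 lower after rescaling. Of these 25 calls, 8 held under every alternative processing and every left-out library that could be fitted, and none changed sign. The 8 were Vegfa on D1 against control and on D14 against D1 in both genotypes, Aplnr on D1 against control and on D14 against D1 in KO, Apln on D14 against D7 in WT and on D14 against D1 in KO, and Angpt2 on D14 against D1 in KO.

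Vegfa, the ligand, was lower on D1 than in control and higher on D14 than on D1. Vegfa (chr17:46016993-46032369) was at 85.0, 66.5 and 77.5 TPM in control muscle, and the WT D1 libraries of the same table were at 49.9, 32.4 and 35.8. The groups did not overlap, where 7.03% of genes were lower without overlap. Vegfa fell by 0.95 on the log2 scale (SE 0.20, adjusted p = 0.00532, limma). On D4 it was at 25.4, 46.6 and 59.8 TPM, on D7 at 94.7, 81.2 and 89.0 and on D14 at 105.4, 88.8 and 114.1 in WT. D4 was thus the most spread day, with replicate 1 below every other injured library, and the step to D7 did not pass the threshold (1.07, adjusted p = 0.0522). By D14 Vegfa was 1.38 higher than on D1 on the log2 scale (SE 0.35, adjusted p = 0.00403). In KO it was at 43.6, 45.3 and 47.9 TPM on D1, 66.7, 115.9 and 38.9 on D4, 100.9, 45.7 and 90.0 on D7 and 146.4, 138.0 and 82.6 on D14, and D14 was 1.36 above D1 (SE 0.35, adjusted p = 0.00377). All 3 D14 libraries were above all 3 D1 libraries in each genotype, as for 7.13% of genes in WT and 12% in KO. Over all alternatives these estimates ran from -1.73 to -0.65 for D1 against control, from 1.25 to 1.97 for WT and from 1.21 to 1.95 for KO.

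Mature myofibre genes were called lower on D1, as Vegfa was, and lower again on D4, when Vegfa was not called. Of 9 such genes, 4 were lower on D1 than in control (5.64% of all genes), among them the myoglobin gene Mb (-3.06, limma adjusted p = 0.022). The summed TPM of the 9 was 126375 to 133903 in control and 60653 to 127034 on D1. On D14 2 of 9 in WT and 3 of 9 in KO were higher than on D1 (5.15% and 8.43% of all genes). From D1 to D4 in WT 4 of 9 were lower (median -0.75, all genes 0.17; 5.27% of all genes), where Vegfa differed by 0.09, and 0 to 4 were lower after rescaling. The count on D1 was 6 with median-of-ratios scaling and 0 under the 2 other rescalings. Within groups, Vegfa and the myofibre sum went together in some and not in others. In WT on D4 replicates 1, 2 and 3 rose in both (sums 28855, 58593 and 63141, Vegfa 25.4, 46.6 and 59.8 TPM). In WT on D7 and in KO on D14 the order was reversed. KO D4 replicate 2, with the highest myofibre sum of its group, had the highest Vegfa of that group. KO D7 replicate 2, with the highest sum of all injured libraries, had the lowest Vegfa of its group. The part of myofibre content in the Vegfa values was not tested. Among the 13 genes of the hypoxia list, 4 of 12 tested were higher and 2 lower on D1 than in control. Of all genes, 55.4% were higher and 5.64% lower (median of the list 0.42, all genes 0.66). The largest were Hif1a (2.44, limma adjusted p = 0.0032), the oxygen-regulated factor itself and not a target, the glucose transporter Slc2a1 (1.83, adjusted p = 0.0029) and adrenomedullin (Adm, 1.23, adjusted p = 0.0055). These 3 were higher on the day when Vegfa was lower, and 2 other genes of the list were lower, as Vegfa was. The list as a whole had 2 or 3 genes higher and 4 or 5 lower after rescaling. The part of hypoxia in the Vegfa values was not tested. From D1 to D14 the differences were -2.12 in WT and -2.28 in KO for Slc2a1 and -1.68 and -2.39 for Hif1a, all called. The list had 3 of 13 genes higher and 5 lower in WT over that time (5.15% and 40.5% of all genes). In KO 2 were higher and 5 lower (8.43% and 42.8% of all genes). After rescaling 4 to 6 were higher and 2 to 4 lower over both genotypes. Those higher, named after their values were seen, included Bnip3 (0.85 in WT and 1.10 in KO) and Egln1 (0.72 and 0.88), so that genes of the list lay on either side of 0 when Vegfa was higher.

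The VEGF-A receptors parted from each other on D4. Kdr (chr5:75932827-75978458) was at 14.7, 10.45 and 13.7 TPM in control and at 8.7, 9.7 and 5.7 in WT on D1. These D1 libraries were all below control, as for 7.03% of genes, and Kdr fell by 0.64 (SE 0.24, limma adjusted p = 0.0456). Flt1 (chr5:147561604-147726011) was at 13.7, 10.2 and 14.2 TPM in control and at 15.6, 11.4 and 9.8 on D1 in WT, which overlapped (difference -0.06, adjusted p = 0.835). On D4 the order was turned: Kdr was at 13.3, 13.8 and 20.9 TPM and Flt1 at 6.5, 5.7 and 8.6. Each D4 library of Kdr was above all D1 libraries and each of Flt1 below them, where 22.1% of genes were higher and 7.39% lower without overlap. Flt1 fell by 0.74 (SE 0.25, adjusted p = 0.041), and Kdr differed by 0.91 (SE 0.33, adjusted p = 0.0572), which did not pass. In KO, Flt1 went from 17.2, 16.8 and 16.5 TPM on D1 to 8.3, 15.5 and 5.7 on D4, a fall of 0.83 (SE 0.25, adjusted p = 0.0262), while Kdr went from 10.95, 10.2 and 10.95 TPM to 15.3, 23.4 and 8.6, which overlapped (0.42, adjusted p = 0.365).

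Neither receptor call on D4 was firm. The Flt1 call in WT was lost with no filter, with the replicate number as a block, with only the compared groups in the fit and without any of 4 libraries (WT D1 replicate 1 or 2, WT D4 replicate 1 or 2), over which the estimate stayed between -0.99 and -0.56. In KO it was lost under the 3 rescalings, with only the compared groups and without KO D1 replicate 1 or 3 or KO D4 replicate 1 or 3 (-1.18 to -0.53), and was -1.18 (adjusted p = 0.000866) without KO D4 replicate 2. The Kdr call against control was lost with no filter, with the block and without any library but WT D1 replicate 2 (-1.42 to -0.44 over all alternatives). On D7 the Kdr libraries of both genotypes were above all control libraries, and on D14 they overlapped them. Kdr in WT was at 18.5, 20.6 and 30.3 TPM on D7 and 22.8, 10.1 and 13.2 on D14, and in KO at 17.8, 14.8 and 18.8, then 12.8, 23.7 and 26.0. Kdr was 0.84 higher on D14 than on D1 in KO (adjusted p = 0.0388), a call lost with no filter, with the replicate block and without 5 of the 6 libraries (all but KO D14 replicate 1) with an adjusted p of up to 0.152, and 0.81 higher in WT without passing (adjusted p = 0.0513). Flt1 in WT was at 10.1, 10.54 and 12.95 TPM on D7 and 13.5, 16.1 and 18.8 on D14, with no call.

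The ratio of the receptors within a library shows the turn without reference to other genes. Kdr:Flt1 in TPM averaged 1.02 ± 0.05 (SD, n = 3) in control, 0.66 ± 0.16 in WT on D1 and 2.30 ± 0.23 in WT on D4, with 2.04 ± 0.27 and 1.00 ± 0.59 on D7 and D14. In KO it averaged 0.64 ± 0.03, 1.63 ± 0.19, 1.64 ± 0.16 and 1.29 ± 0.42. The lowest D4 library of either genotype (1.51) lay above the highest D1 library (0.85). The D14 libraries were spread from 0.63 to 1.68 in WT and from 0.80 to 1.55 in KO, so that no return to the control ratio can be read from them. The ratio was chosen after these values were seen and is given with no test.

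**Figure D2:**
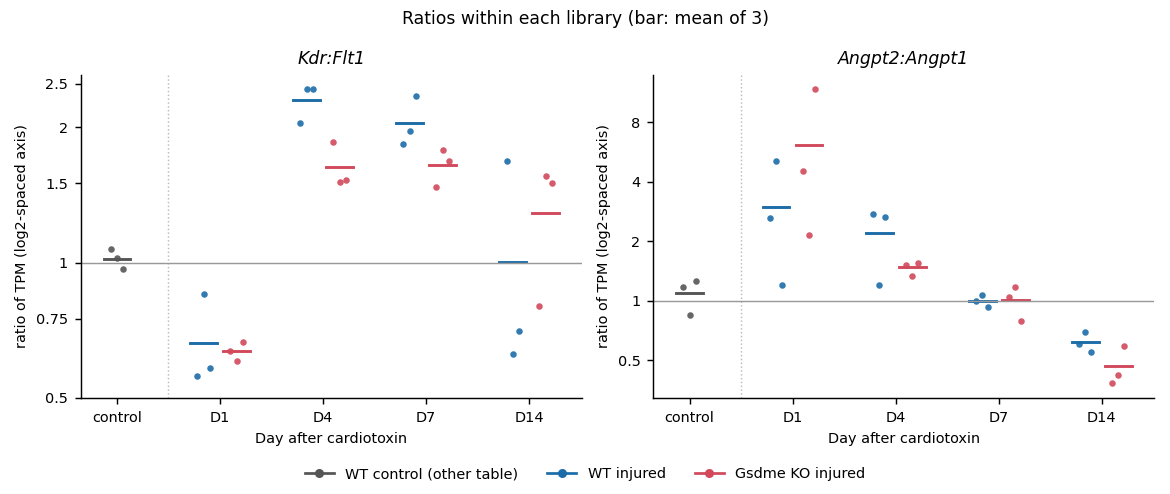
Ratio of TPM within each library for Kdr to Flt1 (left) and Angpt2 to Angpt1 (right), on log-spaced y axes, in control and on each day after CTX, with a point for each library and a bar at the mean of 3. Kdr:Flt1 lies from 0.56 to 0.85 on D1 and from 1.47 to 2.43 on D4 and D7, and Angpt2:Angpt1 lies from 0.38 to 0.69 on D14.

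The other genes of the VEGF system were called higher on D1 about as often as genes in general. Of 7 (Vegfb, Vegfc, Vegfd, Pgf, Flt4, Nrp1 and Nrp2), 4 were higher and 1 lower than in control, against 55.4% and 5.64% of all genes, led by the co-receptors Nrp1 (1.47, adjusted p = 0.0053) and Nrp2 (1.13, adjusted p = 0.018) and by placental growth factor, Pgf (1.44, adjusted p = 0.0026), a ligand of FLT1. After rescaling 2 were higher and 2 lower in 2 settings, and 3 higher and 1 lower with the abundant genes removed. No gene of the 7 was called from D1 to D4 or from D4 to D7 in WT. From D7 to D14 1, Nrp2, fell (by 1.17, limma adjusted p = 0.014), where 30.9% of all genes were lower.

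In the angiopoietin system, both ligands were called in some comparisons, with the larger differences in Angpt2, and the receptor Tek was called in no comparison. Tek (chr4:94739289-94874976) was at 11.7, 9.1 and 12.0 TPM in control and between 7.4 and 17.4 TPM in the 24 injured libraries. Its highest libraries were WT D7 replicate 3 and KO D14 replicate 3 (17.4 and 15.99 TPM) and its lowest was WT D1 replicate 3. Angpt2 (chr8:18690263-18741562) was at 1.5, 0.9 and 1.8 TPM in control and at 5.4, 9.2 and 1.9 in WT on D1. All 3 were above control, as for 64.2% of genes, though replicate 3 only narrowly. The difference was 1.27 (SE 0.42, limma adjusted p = 0.0307). In KO on D1 it was at 10.2, 5.2 and 21.7 TPM. On D4 Angpt2 was at 7.7, 3.1 and 2.9 in WT and 3.7, 2.5 and 3.3 in KO, and on D14 at 1.9, 2.0 and 1.2 in WT and 1.6, 1.9 and 2.1 in KO, beside control libraries that reached 1.8.

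From D1 to D4 Angpt2 fell by 1.502 in KO (SE 0.42, adjusted p = 0.0199) and differed by -0.16 in WT (adjusted p = 0.833). From D1 to D14 it fell by 2.01 in KO (adjusted p = 0.000823; -2.47 to -1.44 over all alternatives) and fell by 1.10 in WT (adjusted p = 0.0399). The WT call and that against control each rested on few settings: the latter was lost under the 3 rescalings, with no filter and without any library but WT D1 replicate 3, and the former under the 3 rescalings, with no filter, with quality weights, with only the compared groups and without any library but WT D1 replicate 3. Without that library the differences were 1.76 (adjusted p = 4.72e-05) and -1.60 (adjusted p = 0.00373). The KO call on D4 was lost with only the compared groups in the fit and without KO D1 replicate 1 or 3 or KO D4 replicate 2 (adjusted p up to 0.137).

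Angpt1 (chr15:42424723-42676977) had the lowest mean of the members in control, at 1.3, 1.1 and 1.4 TPM in control and at 2.1, 1.8 and 1.6 in WT on D1. It was at 2.8, 2.5 and 1.1 TPM on D4, 4.1, 4.0 and 3.9 on D7 and 3.2, 2.8 and 2.2 on D14 in WT, so that D7 was the highest day and also the tightest. The difference from D4 to D7 was 0.72 (SE 0.23, adjusted p = 0.0462), a call that was lost with a smaller pseudocount, with no filter, with only the compared groups and without any library but WT D4 replicate 2 (0.45 to 0.89). In KO it was at 2.3, 2.4 and 1.9 TPM on D1, 2.4, 1.8 and 2.1 on D4, 3.8, 1.8 and 4.3 on D7 and 4.2, 4.6 and 3.6 on D14, and D14 was 0.69 above D1 (SE 0.23, adjusted p = 0.0168). This was lost without KO D1 replicate 3 or KO D14 replicate 2 (adjusted p up to 0.0671). The ratio Angpt2:Angpt1 averaged 1.09 ± 0.22 in control (SD, n = 3), and ran over the days of both genotypes from 2.96 ± 1.96 on D1 through 2.20 ± 0.86 and 1.00 ± 0.07 to 0.62 ± 0.07 in WT, and from 6.13 ± 4.99 through 1.47 ± 0.12 and 1.00 ± 0.20 to 0.46 ± 0.11 in KO. All 6 D14 libraries lay below all 3 control libraries. This ratio too was chosen with its values known and is not tested, and the control values come from the other table.

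Apln and its receptor Aplnr were called lower from D7 to D14 in WT. Apln (chrX:48025146-48034853) was at 2.8, 3.4 and 3.0 TPM in control, and in WT at 11.5, 19.5 and 3.4 on D1, 18.7, 8.4 and 5.0 on D4, 16.8, 23.6 and 17.6 on D7 and 3.0, 3.6 and 2.2 on D14. The D7 libraries were close together and all far above those of D14, where 58.9% of genes were lower on D14 without overlap. The difference was -2.37 (SE 0.49, adjusted p = 0.00646, limma), which was the largest of any member in any comparison fitted. It ranged from -2.68 to -1.87 over all alternatives. In KO Apln was at 14.9, 9.3 and 37.3 TPM on D1, 6.5, 4.7 and 4.8 on D4, 14.5, 10.49 and 19.4 on D7 and 3.4, 3.7 and 4.9 on D14. The D1 and D7 libraries of KO were all above those of D4 and D14. Without overlap, 19.8% of genes were lower from D1 to D4 and 51.5% from D1 to D14. From D4 to D7 2.43% were higher, and from D7 to D14 25.7% were lower. By limma, Apln fell by 1.56 from D1 to D4 (adjusted p = 0.0344) and by 1.90 from D1 to D14 (adjusted p = 0.00381). The later steps did not pass (1.29, adjusted p = 0.402, to D7 and -1.64, adjusted p = 0.123, to D14).

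Against control, Apln was 1.36 higher on D1 in WT (SE 0.49, adjusted p = 0.0401), with replicate 3 at 3.4 TPM inside the control range. Without that library the difference was 1.98 (adjusted p = 9.75e-06), and the call was lost under the 3 rescalings, with no filter and without any other library. Similarly, the fall of 1.41 from D1 to D14 in WT (adjusted p = 0.0254) was lost under 6 of 9 alternatives and without WT D1 replicate 1 or 2 or WT D14 replicate 1 or 3, and it fell by 2.04 without WT D1 replicate 3. The D1 to D4 fall in KO was lost with no filter, with quality weights, with only the compared groups and without KO D1 replicate 1 or 3 or KO D4 replicate 2 or 3 (-1.98 to -1.03).

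Aplnr (chr2:85136225-85139923) was at 5.9, 5.7 and 5.0 TPM in control and at 18.4, 22.8 and 13.4 in WT on D1 in the same table. No library overlapped, WT D1 replicate 3 included, where 64.2% of genes were higher without overlap. The difference was 1.52 (SE 0.23, limma adjusted p = 0.00207, 0.74 to 1.72 over all alternatives). In WT it was then at 37.2, 29.7 and 34.8 TPM on D4, 33.9, 33.1 and 39.5 on D7 and 19.9, 12.6 and 8.6 on D14. D4 and D7 did not differ beyond their spread (0.07, adjusted p = 0.907), and from D7 to D14 Aplnr fell by 1.38 (SE 0.33, adjusted p = 0.00927), a call lost only without WT D14 replicate 3 (adjusted p = 0.0674). In KO it was at 28.6, 24.8 and 34.8 TPM on D1, 23.0, 11.6 and 17.0 on D4, 31.9, 21.3 and 31.0 on D7 and 3.9, 11.6 and 10.4 on D14. From D7 to D14 it fell by 1.69 (adjusted p = 0.0225), lost with no filter, with only the compared groups and without KO D14 replicate 1 or KO D7 replicate 1 or 3 (-1.94 to -1.26 over all alternatives), and from D1 to D14 by 1.76 (adjusted p = 0.000303).

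By D14 the members had reached different places relative to uninjured muscle. These levels are set side by side with no test, since control and D14 are in tables that were quantified separately. Apln and Angpt2 in WT were at 2.2 to 3.6 and 1.2 to 2.0 TPM, next to 2.8 to 3.4 and 0.9 to 1.8 in control. Aplnr was still above every control library in all 3 WT libraries and in 2 of 3 KO libraries. Vegfa (88.8 to 114.1 TPM in WT) and Angpt1 (2.2 to 3.2 TPM in WT, 3.6 to 4.6 in KO) were above the control range of 66.5 to 85.0 and 1.1 to 1.4 TPM in every WT library, and Vegfa in 2 of 3 KO libraries.

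The wider endothelial programme was read from 25 other endothelial genes. On D1 against control 10 of 24 tested were higher and 0 lower, against 55.4% of all genes higher (median difference 0.50, all genes 0.66), led by Cd93 (1.94), a sprouting-related receptor, the ETS factor Erg (1.23) and Ecscr (1.15). The direction of that count depended on scaling: with median-of-ratios scaling 2 were higher and 4 lower, and with quantile normalization 1 was higher and 4 lower. With the 50 most abundant genes removed, 4 were higher and 1 lower. From D4 to D7 in WT 7 of 25 were higher and 1 lower, against 3.04% and 9.31% of all genes (median 0.46, all genes -0.24), with Sox7 (1.20), Ptprb (1.19) and Adgrl4 (0.96) in front, and between 12 and 14 were higher with 0 lower after rescaling. From D7 to D14 0 were higher and 13 lower, against 30.9% of all genes lower (median -0.57, all genes -0.45), led by Cd93 (fell by 1.36), Plvap (fell by 1.34), a gene of fenestrated and activated endothelium, and Sox18 (fell by 1.07), and 2 or 3 were lower after rescaling. In KO 4 of 25 were lower on D4 than on D1 (12.2% of all genes), Sox17 (fell by 1.32), Erg (fell by 0.89) and Nos3 (fell by 0.82) among them, and none was called from D4 to D7, where no gene at all was. Before rescaling, the Cdh5 and Pecam1 differences had the sign of the list's median in each of these comparisons.

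Of 11 genes of tip cells and their matrix, 5 of 10 tested were higher on D1 against control, near the 55.4% of all genes. Among them were Cxcr4 (2.48), Mcam (1.24) and Pdgfb (0.82). After rescaling 0 to 2 of the list were higher and 0 to 2 lower. In whole muscle RNA the cell types that carried these transcripts cannot be told apart. From D1 to D4 in WT, where Apln was not called, 3 of 11 were higher (14.6% of all genes), Lamb1 (1.92), Unc5b (1.49) and Nid2 (1.19), which stand for basement membrane laminin, a guidance receptor and nidogen. This count was the same after each rescaling. From D7 to D14 8 of 11 were lower in WT (median -1.28, all genes -0.45), with Lamb1 (fell by 1.84), Cxcr4 (fell by 1.75) and Mcam (fell by 1.44) in front, and 5 were lower after each rescaling (30.9% of all genes before it). In KO 3 of 11 were lower over that step, in which Apln did not pass, Lamb1 (fell by 1.47) and the collagen IV genes Col4a1 (fell by 1.03) and Col4a2 (fell by 0.94), where 0.477% of all genes were lower.

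**Figure D3:**
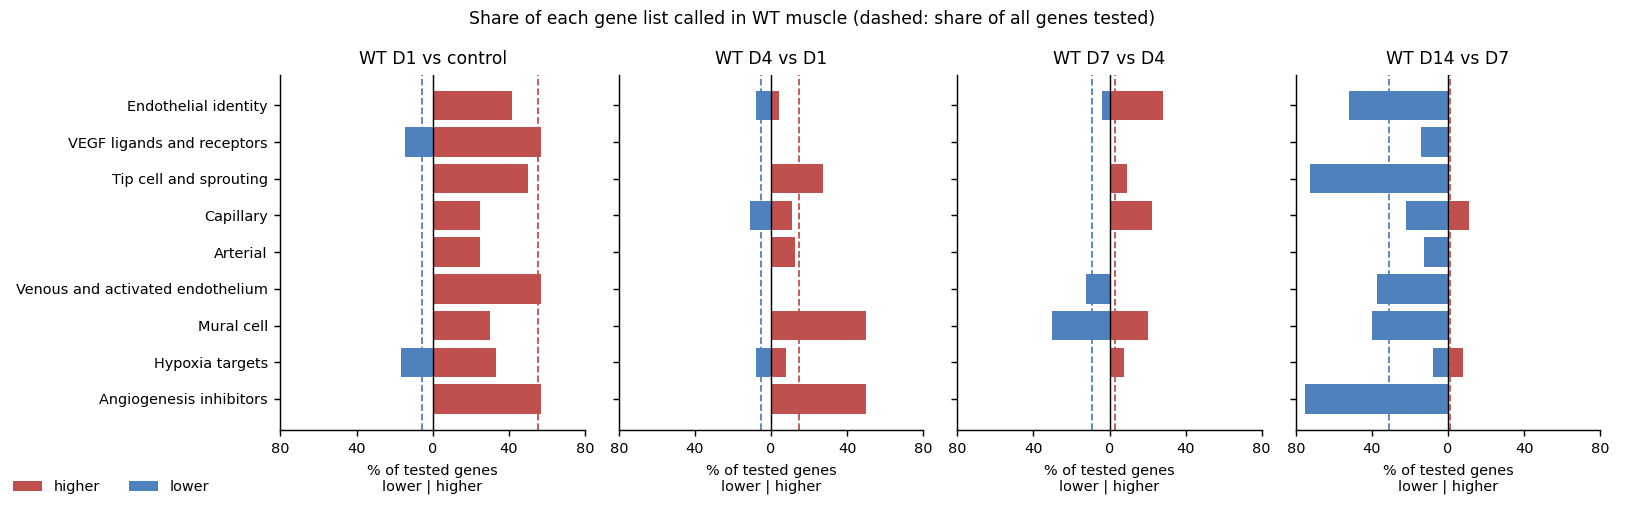
Percent of the tested genes of each list (y axis) that were called higher (red, to the right) or lower (blue, to the left) in the 4 successive WT comparisons (panels), with dashed lines at the percent of all genes tested. Among the lists shown, tip cell genes and angiogenesis inhibitors reach furthest to the left from D7 to D14, at 8 of 11 and 6 of 8 genes. Macrophage and monocyte genes, which are not shown, had 5 of 7 lower over that step.

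Of 8 inhibitors of angiogenesis, 4 of 7 tested were higher on D1 against control, near the 55.4% of all genes, led by thrombospondin 1 (Thbs1, 3.06), and 4 of 8 were higher on D4 than on D1 in WT (14.6% of all genes), led by Thbs2 (3.27), Col18a1 (1.59), whose collagen holds endostatin, and Serpinf1 (1.48). From D7 to D14 6 of 8 were lower (30.9% of all genes), and 4 or 5 after rescaling. Thbs1 (fell by 2.70), Col18a1 (fell by 2.46) and Thbs2 (fell by 2.38) were among them. In KO 1 of 8 was higher from D1 to D4, Serpinf1 (0.97), and 2 were lower, Thbs1 (fell by 2.53) and Adamts1 (fell by 0.86). Over that step 7.18% of all genes were higher and 12.2% lower. From D7 to D14 in KO 1 of 8 was lower, Vash1 (fell by 1.22), against 0.477% of all genes. Among capillary genes in WT, 2 of 8 tested were higher on D1 than in control, Rgcc (2.32) and Kit (0.92), under the 55.4% of all genes. After rescaling 1 or 2 were higher and 2 or 3 lower. From D1 to D4 Rgcc fell by 2.15 and Meox2 rose by 0.84, where 5.27% of all genes were lower and 14.6% higher. From D4 to D7 2 of 9 were higher (3.04% of all genes), Gpihbp1 (1.10) and Tcf15 (1.06), and 4 or 5 after rescaling. From D7 to D14 1 was higher, Car4, a capillary carbonic anhydrase (1.04), and 2 were lower, Meox2 (fell by 1.21) and Kit (fell by 1.07). Of all genes, 0.923% were higher and 30.9% lower. After rescaling 2 or 3 of the capillary genes were higher and 1 or 2 lower. In KO 4 of 9 capillary genes were lower on D4 than on D1 (12.2% of all genes; 1 or 2 after rescaling), with Rgcc (fell by 1.28), Car4 (fell by 1.09) and Cd36 (fell by 0.90) named. Genes of activated venules were higher on D1 in 4 of 7 (55.4% of all genes), such as Selp (2.12) and Vcam1 (1.61), and lower on D14 than on D1 in 6 of 8 in WT and 7 of 8 in KO (40.5% and 42.8% of all genes), and 3 or 4 were lower in each genotype after rescaling.

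Genes of mural cells, which ensheath vessels and are a source of Angpt1, were higher on D4: 5 of 10 genes rose from D1 in WT (14.6% of all genes), led by Acta2 (2.15), Cspg4 (1.24) and Pdgfrb (1.20), and 4 or 5 were higher and 1 lower after rescaling. From D4 to D7, when Angpt1 was higher, the pericyte gene Rgs5 rose by 1.40 while the contractile genes Acta2 (fell by 1.56) and Tagln (fell by 1.20) were lower. On D1 against control, genes of arteries were called higher in 2 of 8 (0 higher and 1 to 4 lower after rescaling). Those of lymphatics were called higher in 2 of 5 and lower in 1 (1 higher and 2 or 3 lower after rescaling). Of all genes, 55.4% were higher and 5.64% lower. From D1 to D4 in WT there were 1 arterial and 2 lymphatic calls, where 19.8% of all genes were called.

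Markers of blood cells, like Apln, Aplnr and Angpt2, were called higher on D1 than in control and lower on D14 than on D1 in KO. All 7 macrophage and monocyte genes were higher on D1 than in control (summed TPM 134.1 to 173.0 in control and 699.2 to 3108 on D1), and all 7 were lower on D14 than on D1 in both genotypes. These directions were common: 55.4% of all genes were higher on D1 than in control, and 40.5% in WT and 42.8% in KO were lower on D14 than on D1. Of 6 platelet genes, 4 were tested and 3 were higher on D1 (summed TPM 23.6 to 32.2 in control and 153.5 to 622.6 on D1), led by Ppbp (3.46) and Pf4 (3.35). From D4 to D7 the median differences of the macrophage and platelet genes were -1.27 and -0.87 in WT and -0.71 and -0.32 in KO. Apln differed by 0.96 and 1.29 and Aplnr by 0.07 and 0.70, and none of these genes was called. From D7 to D14 in WT 5 of 7 macrophage and 2 of 4 platelet genes were lower, against 30.9% of all genes. Apln (-2.37) and Aplnr (-1.38) were called lower over that step. In KO the list medians were -1.28 and -0.48 with no call. There Apln differed by -1.64, which was not called, and Aplnr by -1.69, which was. WT D1 replicate 3, lowest in Apln, Angpt2 and Aplnr of its group, was also lowest in both sums. Within KO D1, replicate 3 had the highest Apln, Angpt2 and platelet sum (1016 TPM), but replicate 1 had the highest macrophage sum (3731 against 3291 TPM). Within WT D4 replicate 1 had the highest Apln, Angpt2 and platelet sum (610.2 TPM). On D7 replicate 1 had the highest platelet sum in WT (101.1 TPM) and in KO (82.6 TPM). Apln on D7 was highest in replicate 2 in WT and in replicate 3 in KO. In the other injured groups the library highest in Apln was also highest in the platelet sum. The part of these cells in the values of the 3 members was not tested. Fibro-adipogenic progenitor genes were higher in 2 of 7 on D1 against control, under the 55.4% of all genes (1 higher and 1 to 3 lower after rescaling). From D1 to D4 in WT 3 of 7 were higher (1 or 2 after rescaling), against 14.6% of all genes.

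The genes whose profiles were most like a member's over the 24 injured libraries were named by Pearson's r among genes with a mean of at least 5 TPM, as a description that rests on days and on libraries of shared makeup. For Cdh5 they were Tie1 (r = 0.915), Robo4 (0.914), Emcn (0.881), Dll4 (0.868) and Esam (0.816), and for Flt1 they were Car4 (0.940), Gm28438 (0.886), Epas1 (0.878), Cd36 (0.847) and mt-Rnr2 (0.843). Apln was nearest to Mcam (0.938), N4bp3 (0.909), Cd93 (0.895), Cav1 (0.887) and Nrp2 (0.883). Angpt2 was nearest to Mxd1 (0.957), Dennd1c (0.950), Fbxl5 (0.944), AA467197 (0.943) and Dusp6 (0.940), none of which is in the endothelial lists used here. The genes nearest to Vegfa were Hsdl2 (0.929), Dhrs11 (0.920), Ndufa1 (0.906), Slc38a3 (0.897) and Osbpl1a (0.895), and those nearest to Angpt1 were Cox7b (0.907), Cavin2 (0.834), Dld (0.819), Chac2 (0.798) and the pericyte gene Rgs5 (0.785). Among the members themselves, r was 0.90 for Pecam1 and Cdh5, 0.83 for Apln and Pecam1, 0.81 for Apln and Angpt2, 0.76 for Apln and Aplnr, 0.10 for Kdr and Flt1, 0.17 for Vegfa and Cdh5 and -0.56 for Vegfa and Angpt2.

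Whether loss of Gsdme changed these genes was asked on each day. None of the 10 was called between KO and WT on D1 (0.00636% of all genes called), D4 (0%), D7 (0%) or D14 (0%), nor on average over days (0.00636%). Unadjusted p-values under 0.05 numbered 2 on D1, 1 on D4 and 0 on D7, on D14 and on average. On D1 KO was higher in all 3 libraries for 4 members, Pecam1, Kdr, Flt1 and Aplnr, where 3.33% of genes were higher without overlap. With 3 against 3 libraries the smallest exact permutation p is 0.1, and it was reached by these 4. The largest differences were Angpt2 1.02 (SE 0.42) and Aplnr 0.69 (SE 0.33), both with an adjusted p of 0.873, and they were 0.53 and 0.50 without WT D1 replicate 3. On D4 the largest was Aplnr at -0.98 (SE 0.33, adjusted p = 0.212), lower in all KO libraries, as 11.2% of genes were, and it was -0.74 without KO D4 replicate 2. Vegfa on D4 differed by 0.68 (SE 0.35, adjusted p = 0.234), and by 0.29 without that library. On D7 Aplnr (-0.34, SE 0.33) was again lower without overlap, as were 14.6% of genes, and on D14 Angpt1 (0.47, SE 0.23) was higher without overlap, as were 7.37% of genes, both with an adjusted p of at least 0.776.

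Averaged over days, the KO differences were 0.01 for Pecam1 (SE 0.11), 0.05 for Cdh5 (SE 0.12), 0.09 for Kdr (SE 0.16), 0.18 for Flt1 (SE 0.12), 0.22 for Vegfa (SE 0.18), 0.14 for Tek (SE 0.10), 0.10 for Angpt1 (SE 0.11), 0.13 for Angpt2 (SE 0.21), 0.01 for Apln (SE 0.25) and -0.32 for Aplnr (SE 0.16). Exact permutation of genotype within days (160000 assignments, two-sided) gave p from 0.149 (Aplnr) to 0.967 (Apln). Measured relative to the mean of Cdh5 and Pecam1 in the same library, Aplnr was lower in KO by 0.35 on average over days (exact permutation p = 0.0425), the only one of 8 members under 0.05, and the others had p of at least 0.114. With a library left out, at least 1 of the 8 members had a p under 0.05 in 11 of 24 settings, and none did with the wider endothelial list as the reference. The largest difference between genotypes was in the step from D1 to D4. Aplnr changed by 0.89 in WT and by -0.78 in KO, a difference of -1.67 (SE 0.46, unadjusted p = 0.00177, adjusted p = 0.204), and Apln (-1.55), Angpt2 (-1.34) and Pecam1 (-0.70) had unadjusted p-values under 0.05 as well, with adjusted p from 0.206 to 0.207. No gene of the whole table was called for a difference between steps. No member was called in the test of any difference between days (lowest adjusted p 0.527), and no gene of the 14 lists was called between genotypes on any day or on average.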

How the data were processed

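TPM tables were deposited by the authors for 24 injured and 3 control libraries, with the WT D1 libraries in both; mm10 is named in the submitters' notes, and the aligner, the counting tool and strand use were not given in the sources used here. TPM holds no read depth, so no interval or detection limit was computed. The deposited values were analysed as log2(TPM + 1) for genes with at least 1 TPM in at least 3 libraries (15718 in the injured and 13041 in the control table), with limma 3.58.1 in R 4.3.3, group means, a variance trend and Benjamini-Hochberg adjustment over all genes tested. The fit was tested on simulated data. Comparisons stayed within a table. Summaries, permutations and promoter matches were made in Python 3.11.15, and gene positions are from GENCODE mouse release M21 (GRCm38). Groups and replicate numbers came from the sample titles.

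Alternatives were a pseudocount of 0.1, no filter or a filter of 5 TPM, 3 rescalings (median of ratios, quantile, and removal of the 50 most abundant genes), library quality weights, only the compared groups, the replicate number as a block, and each library left out. Counts of list genes under these were added after seeing the data. The members and lists were chosen with earlier results of these data known. All members are reported; from each list up to 3 called genes with the largest difference are named, or, with none called, up to 2 with the lowest p as values; for 6 members the 5 most similar genes are named. Same-numbered libraries deviated together in every pair (r over 0.1) only for KO D4 with D1 (0.192 to 0.377) and KO D7 with D4 (0.13 to 0.442). The labels state no pairing. The study describes the control as contralateral muscle, but which control and D1 libraries share a mouse was not found. The main fit was unpaired.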

Additional observations from a re-analysis of the deposited data

Results flagged for a closer look

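Aplnr was the member in which every KO library moved one way against WT on one day and the other way on others. On D1 KO was 0.69 higher than WT on the log2 scale, on D4 it was lower (-0.98) and on D7 it was lower (-0.34), with no overlap between the 3 KO and 3 WT libraries on any of these days. Of all genes, 3.33% were higher on D1, 11.2% lower on D4 and 14.6% lower on D7 without overlap. In the step from D1 to D4 the difference was 0.89 in WT and -0.78 in KO, again without overlap within either genotype. Over that step 22.1% of genes were higher in WT and 19.8% lower in KO without overlap. The difference between the steps, tested with limma, had an unadjusted p of 0.00177 and an adjusted p of 0.204 over all genes, and without WT D1 replicate 3, WT D4 replicate 1 or KO D4 replicate 2 it was -1.48, -1.60 and -1.43. The difference between D1 and D7 was not tested by itself. The test of any difference between days had no member under the threshold. Batch and genotype on D1 cannot be told apart, so neither can batch and the difference between these steps.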

How the results depend on the processing

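Of 25 calls of members between days or against control, 8 held under every alternative and left-out library, and no called value changed sign. The count for WT D1 against control (5) was 8 with quality weights, 3 at 5 TPM (7 members tested), 2 with no filter and 2 to 6 with a library left out. For WT D4 against D1 (1) it was 2 with quantile normalization, 0 with no filter, the replicate block or only the compared groups, and 0 to 2 with a library left out. For WT D7 against D4 (1) it was 3, 5 and 6 under the rescalings, 8 with weights, 2 at 5 TPM, 0 with a pseudocount of 0.1, no filter or only the compared groups, and 0 to 1 with a library left out. For WT D14 against D7 (4) it was 2 with the abundant genes removed, 7 with weights or only the compared groups, and 1 to 4 with a library left out. For WT D14 against D1 (3, of which 1 higher and 2 lower) it was 5 under each rescaling (5 higher and 0 lower), 1 with no filter, weights or only the compared groups, and 1 to 4 with a library left out. For KO D4 against D1 (3) it was 0 with only the compared groups and 0 to 3 with a library left out. For KO D14 against D7 (1) it was 6 with weights, 0 with no filter or only the compared groups, and 0 to 1 with a library left out; KO D7 against D4 (0) had 0 to 1, and KO D14 against D1 (7) had 5 to 6. With the replicate block the counts were 3 for KO D4 against D1 and 0 for KO D7 against D4, the comparisons whose numbers paired; where they did not, the block gave 4 for WT D1 against control, 6 for KO D14 against D1 and no other change but the one above. All 9 comparisons of genotype or of steps kept 0 members. The members relative to Cdh5 and Pecam1 under 0.05 (1) were 0 with the endothelial list as reference and 0 to 1 with a library left out. On D1 against control, Cdh5 was -0.46, -0.27 and -0.19, and Pecam1 -0.37, -0.18 and -0.11, with median-of-ratios scaling, quantile normalization and removal of the abundant genes, and Rgs5, 0.63 as deposited, was -0.15 with median-of-ratios scaling. Rescaling by its construction takes out the shift of all genes; the cause of the other moves was not tested. TPM gives no depth, so what was missed at low levels is unknown.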
